A study of Homo sapiens with 9 samples.

Results

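Tumour necrosis factor (TNF), lymphotoxin alpha (LTA), lymphotoxin beta (LTB), transforming growth factor beta 1 (TGFB1), bone morphogenetic protein 7 (BMP7), heparin-binding EGF-like growth factor (HBEGF), vascular endothelial growth factor B (VEGFB) and platelet-derived growth factor subunit A (PDGFA) are secreted or membrane-bound ligands that a B cell can make and a stromal cell can respond to. These 8 genes were taken by name from a list of ligands, and all 8 were among the 58243 gene identifiers counted in each of 9 RNA-seq libraries. The cells were DOHH2, an established human line of transformed follicular lymphoma. Human CD20-positive DOHH2 cells were sorted from femurs of grafted RAGγc mice, an immunodeficient strain, at day 19 or day 40 after grafting. Cultured DOHH2 cells, labelled day 0 for the grafting day, were their reference. Each group had 3 libraries. Femur cells had been released by flushing and enzyme digestion, depleted of mouse CD45- and Ter119-positive cells with beads and sorted, steps that the protocols describe for femurs and not for the cultured cells. All the cells came from 1 line, and the labels do not tie libraries to single animals or to separate cultures, so p-values measure the spread between these libraries, which may in part be technical.

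In lymphoid tissue, lymphotoxin and TNF made by lymphocytes act on receptors of fibroblastic stromal cells and maintain their network, while TGF-beta drives fibroblasts toward matrix production. BMPs direct mesenchymal cells toward bone and cartilage, HB-EGF signals through the EGF receptor family after release from the cell surface, VEGF-B acts on endothelial cells, and PDGF-A acts on PDGF receptor alpha of mesenchymal cells. Marrow stroma is therefore a possible receiver of all 8 ligands. Only the RNA of cultured DOHH2 cells and of sorted femur cells was counted here, and neither ligand protein nor stromal cells were measured.

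Promoter sequences, from 250 bases before to 50 bases after an annotated start, were held in the RefSeq table (GRCh38.p14) for 7 of the 8 genes in 12 entries; BMP7 had none there. Those of HBEGF, the ligand that rose, and of LTB and LTA, neighbouring genes that were both low in femur cells, are shown 5′ to 3′ on the strand of the gene. Capitals mark GC boxes (GGGCGG) and NF-kB-like letters (GGGA, then 4 bases of any kind, then CC), each searched on both strands. The HBEGF window lies at chr5:140346554-140346853 (minus strand), that of LTB at chr6:31582376-31582675 (minus strand) and that of LTA, the second of its entries, at chr6:31572039-31572338 (plus strand).
HBEGF: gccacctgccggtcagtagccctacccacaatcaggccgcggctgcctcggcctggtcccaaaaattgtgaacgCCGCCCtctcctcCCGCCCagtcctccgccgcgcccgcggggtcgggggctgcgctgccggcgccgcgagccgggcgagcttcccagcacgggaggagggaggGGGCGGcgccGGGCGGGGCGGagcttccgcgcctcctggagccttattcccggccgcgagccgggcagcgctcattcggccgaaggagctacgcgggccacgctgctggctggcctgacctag
LTB: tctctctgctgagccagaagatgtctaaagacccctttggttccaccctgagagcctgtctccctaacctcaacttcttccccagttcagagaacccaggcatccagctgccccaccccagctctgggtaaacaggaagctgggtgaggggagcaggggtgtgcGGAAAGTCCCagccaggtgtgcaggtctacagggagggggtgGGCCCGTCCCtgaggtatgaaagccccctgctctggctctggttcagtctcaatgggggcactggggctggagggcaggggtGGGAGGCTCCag
LTA: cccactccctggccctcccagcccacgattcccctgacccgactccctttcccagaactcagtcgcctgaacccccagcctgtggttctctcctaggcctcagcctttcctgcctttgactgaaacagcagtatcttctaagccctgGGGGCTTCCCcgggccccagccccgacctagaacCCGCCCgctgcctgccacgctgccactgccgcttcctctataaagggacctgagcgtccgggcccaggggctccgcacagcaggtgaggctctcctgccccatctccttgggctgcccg
The HBEGF window held 5 GC boxes, 2 of which share a base, and no NF-kB-like match. The LTB window held 3 NF-kB-like matches, beginning at positions -86, -44 and 39 from the start, and no GC box. The LTA window held 1 NF-kB-like match at -103 and 1 GC box at -69, while the first LTA entry, not shown, held neither. None of the 3 windows shown matched AP-1 (TGANTCA), CRE (TGACGTCA), EGR (GCGGGGGCG), SMAD (GTCTAGAC) or CArG box letters. Among windows not shown, those of TGFB1, which fell, and VEGFB, which did not pass the test, each held GC boxes and 1 NF-kB-like match. GC boxes were thus not limited to the ligand that rose, nor NF-kB-like letters to those that fell. Such letters are common, since 45.0% of the 35116 promoter entries held a GC box and 25.6% an NF-kB-like match, and they describe the windows only.

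Libraries held between 21071239 and 29456271 counts. All 8 B-cell markers examined were tested and their summed level was 4176 to 5228 CPM (counts scaled to library size) in culture, 2573 to 2802 CPM at day 19 and 3042 to 3260 CPM at day 40. Markers of stromal and osteolineage cells summed to 1.91 to 2.20 CPM in culture, 5.40 to 8.09 CPM at day 19 and 4.87 to 7.09 CPM at day 40. Of these 14 stromal markers, COL1A2, COL3A1, LUM, POSTN and CXCL12 were at 0 in all 9 libraries, and 3 passed the filter on low counts. PDGFRB, one of them, had means of 0.0445 CPM in culture, 5.17 CPM at day 19 and 3.44 CPM at day 40, and COL1A1, which was not tested, had 4, 0 and 1 counts in culture, 2, 4 and 2 at day 19, and 39, 16 and 2 at day 40. Of the other tested stromal markers, RUNX2 fell at day 19 against day 0 (log2 -2.20, edgeR adjusted p = 0.014) and LEPR passed in no comparison. Endothelial markers summed to 4.53 to 7.83 CPM in culture, 1.90 to 3.51 CPM at day 19 and 3.52 to 4.70 CPM at day 40, with CDH5, KDR, TEK and EMCN at 0 throughout. The 1 tested endothelial marker, PECAM1, fell at day 19 (log2 -1.40, edgeR adjusted p = 0.000763). Myeloid markers summed to 2.63 to 6.28 CPM, and erythroid and megakaryocyte markers to at most 0.659 CPM. The labels end in digits that can be read as dates, though no label says what they stand for. Read so, day 40 replicates 1, 2 and 3 came 11, 26 and 39 days later than the culture sample with the same replicate number. If these are sampling dates, replicates 1 and 2 do not date from the grafting of that culture.

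Of the 8 ligand genes, 5 had enough counts to be tested, and TNF, LTA and PDGFA did not. Of the 5 tested, HBEGF rose in femur cells at day 19 against day 0, LTB, TGFB1 and BMP7 fell, and VEGFB did not pass the test (edgeR quasi-likelihood test, Benjamini-Hochberg adjusted p under 0.05 over 15163 genes). In that comparison 52.8% of all tested genes passed, 26.3% higher and 26.5% lower. The same 4 genes passed in the same directions at day 40 against day 0, where 46.6% of tested genes passed, 23.3% in each direction. Both comparisons use the same 3 culture libraries. At day 40 against day 19, TGFB1 and BMP7 passed and both were higher at day 40, with 4.68% of tested genes passing and 3.23% passing as higher. The median log2 fold change of all tested genes was 0.01, 0.01 and 0.00 in these comparisons. LTB passed the filter through the culture libraries, so its being tested was tied to its high level there.

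**Figure D1:**
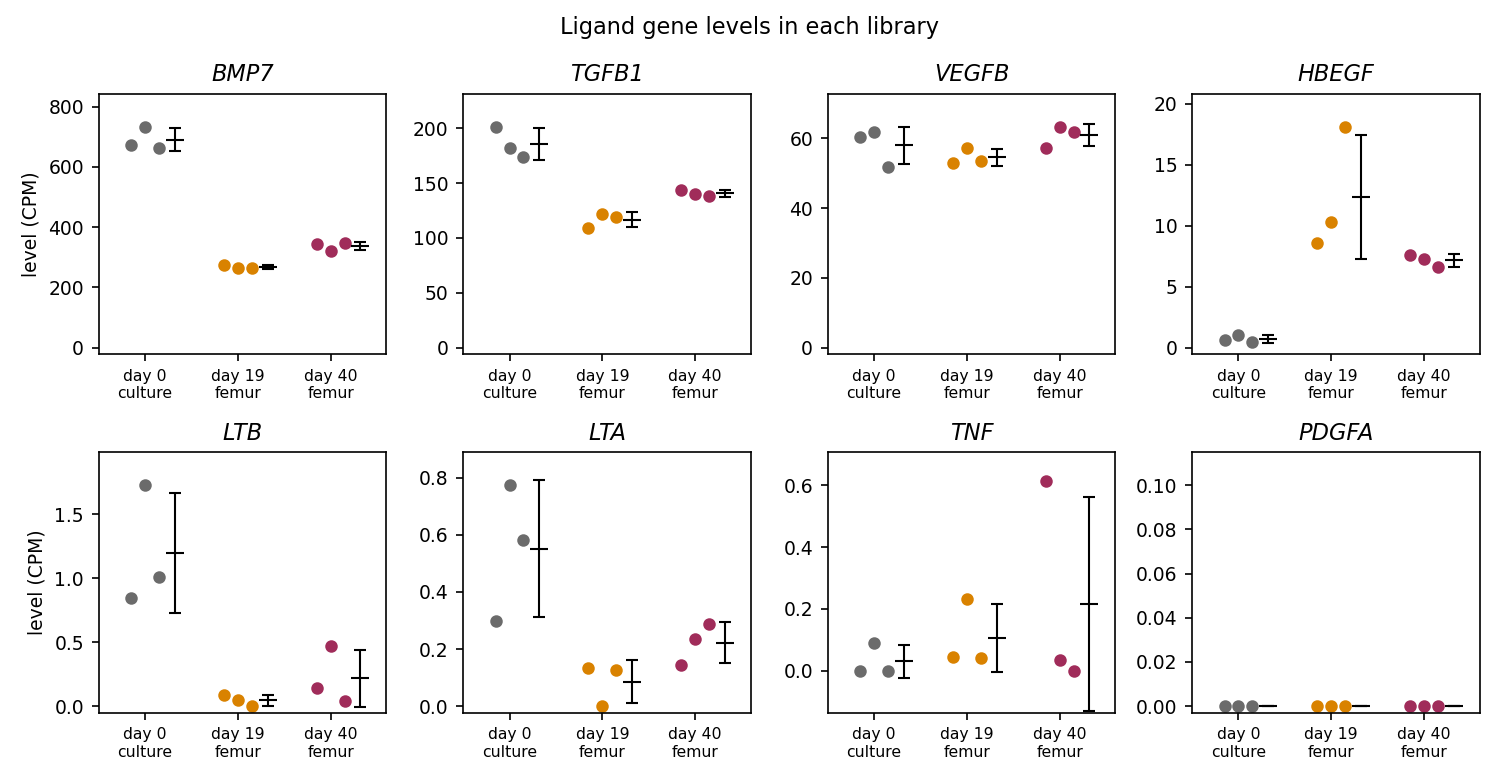
Level of each ligand gene in CPM, on TMM-scaled library sizes, in each of 9 libraries, grouped by day (day 0 culture, day 19 femur, day 40 femur). Points are libraries, and the bars beside them show the mean and SD of 3 libraries, which can reach below 0. BMP7 lay between 264 and 733 CPM, and PDGFA was at 0 in every library.

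HBEGF is made as a membrane protein whose ectodomain is shed by metalloproteases to act on EGFR and ERBB4. The gene lies on chromosome 5 from 140332843 to 140346631 on the minus strand (hg38). Culture libraries held 14, 23 and 12 HBEGF counts, day 19 libraries 195, 222 and 429, and day 40 libraries 210, 217 and 161. All 6 femur libraries stood above all 3 culture libraries, and replicate 3 was the highest at day 19. The level was 12.3 ± 5.08 CPM at day 19 and 0.702 ± 0.306 CPM in culture (SD, n = 3 each), and HBEGF rose 17.8-fold (log2 fold change 4.15, SE 0.33, edgeR adjusted p = 8.34e-07). At day 40 the level was 7.15 ± 0.514 CPM (SD, n = 3), 10.3-fold above culture (log2 3.36, SE 0.34, edgeR adjusted p = 9.46e-06). The day 40 libraries, at 6.59 to 7.60 CPM, were all below the day 19 libraries, at 8.57 to 18.1 CPM, but the difference did not pass the edgeR test (log2 -0.79, SE 0.26, adjusted p = 0.119). That difference passed with DESeq2 (log2 -0.79, adjusted p = 0.0405) and without the filter on low counts (adjusted p = 0.000275). The fit without the filter took its spread from an estimate shared across genes, not from the HBEGF libraries themselves. In these bulk libraries, more cells making a transcript and more transcript per cell cannot be told apart.

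LTA and LTB encode the subunits of the lymphotoxin trimer, whose membrane form acts on the lymphotoxin beta receptor of stromal cells, and TNF lies between them on chromosome 6. LTB, from 31580525 to 31582522 on the minus strand, had 20, 38 and 26 counts in culture, 2, 1 and 0 at day 19, and 4, 14 and 1 at day 40. Every femur library was below every culture library. LTB fell in day 19 cells to 0.0448 ± 0.0440 CPM, against 1.19 ± 0.470 CPM in culture (SD, n = 3 each; log2 -4.60, SE 0.79, edgeR adjusted p = 0.000412). Summed over libraries, the 3 day 19 counts against 84 culture counts gave a ratio of 0.0375 after scaling, with a 95% counting interval of 0.00759 to 0.113. LTB also fell in day 40 cells, to 0.218 ± 0.223 CPM (log2 -2.35, SE 0.57, edgeR adjusted p = 0.00493). Replicate 2 held 14 of the 19 day 40 counts, and without it the day 40 log2 fold change was -3.57 (adjusted p = 0.00127). Day 40 and day 19 libraries overlapped, and their difference did not pass the test (log2 2.24, SE 1.01, edgeR adjusted p = 0.286). T and NK cell markers were low throughout and also lower in femur cells. They summed to 2.75 to 3.90 CPM in culture, 1.31 to 2.09 CPM at day 19 and 1.43 to 2.14 CPM at day 40. Of the 7, CD3E and NKG7 were tested. CD3E fell at both days (log2 -1.36 and -1.19, edgeR adjusted p = 0.00198 and 0.00448), as did NKG7 (log2 -1.14 and -0.95, adjusted p = 0.00917 and 0.0218), whose day 40 call was lost without culture replicate 1 or day 40 replicate 3. The culture libraries were labelled as the DOHH2 line. Which cells the T and NK marker transcripts came from was not tested, nor was any tie to the lymphotoxin values.

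LTA, from 31572054 to 31574324 on the plus strand, was too low for the test across genes. It had 7, 17 and 15 counts in culture, 3, 0 and 3 at day 19, and 4, 7 and 7 at day 40. Each of the 6 femur libraries was below each culture library in CPM, at 0.154 ± 0.0991 CPM in femur cells (SD, n = 6) and 0.550 ± 0.240 CPM in culture (SD, n = 3). The exact two-sided permutation test gave p = 0.0238, the smallest that 6 libraries against 3 allow. The ratio of summed counts was 0.162 at day 19 against day 0, with a 95% counting interval of 0.0559 to 0.384, and 0.402 at day 40 against day 0, with an interval of 0.217 to 0.720. When no genes were filtered, LTA passed the edgeR test at day 19 (log2 -2.60, adjusted p = 0.000433) and missed it at day 40 (log2 -1.32, adjusted p = 0.0571). That fit took the spread from an estimate shared across genes, so these p-values do not measure the spread of LTA between libraries.

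TNF, the founding ligand of its family and an activator of NF-kB in stromal cells, lies from 31575567 to 31578336 on the plus strand. Its counts were 0, 2 and 0 in culture, 1, 5 and 1 at day 19, and 17, 1 and 0 at day 40. Replicate 1 of day 40 stood apart from the other libraries, which held 10 of the 27 TNF counts, and the groups overlapped. Levels were 0.161 ± 0.237 CPM in femur cells (SD, n = 6) and 0.0303 ± 0.0525 CPM in culture (SD, n = 3), and the exact two-sided permutation test gave p = 0.524. The ratio of summed counts at day 19 against day 0 was 3.68, with a counting interval of 0.700 to 36.3. At day 40 it was 7.84, with an interval of 1.88 to 69.7, and 17 of the 18 day 40 counts came from replicate 1. Without the filter TNF passed the edgeR test at day 40 against day 0 (log2 2.72, adjusted p = 0.0334), on those same counts, and not at day 19 (log2 1.69, adjusted p = 0.338). As for LTA, that fit did not use the spread of TNF itself between libraries. TNF and LTA were the members tested by permutation, with p-values not adjusted.

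BMP7, known for bone and kidney formation, was the most abundant of the 8 ligands. It lies on chromosome 20 from 57168748 to 57266629 on the minus strand. Its level was 674, 733 and 664 CPM in culture, 275, 263 and 264 CPM at day 19, and 344, 322 and 347 CPM at day 40. The 3 groups did not overlap, with day 19 the lowest and culture the highest. BMP7 fell in day 19 cells to a mean of 267 ± 6.51 CPM, against 690 ± 37.6 CPM in culture (SD, n = 3 each; log2 -1.37, SE 0.07, edgeR adjusted p = 1.29e-08). At day 40 the mean was 338 ± 13.6 CPM (SD, n = 3), which was lower than in culture (log2 -1.03, SE 0.07, adjusted p = 2.08e-07) and higher than at day 19 (log2 0.34, SE 0.07, adjusted p = 0.0111). The difference between days 40 and 19 missed the threshold without day 19 replicate 2 (adjusted p = 0.0706) or replicate 3 (adjusted p = 0.0715), and without day 40 replicates 1 and 2, which leaves 1 day 40 library (adjusted p = 0.187), while its log2 value stayed between 0.32 and 0.38. BMP7 overlaps the antisense gene BMP7-AS1, with which it shares no exon base.

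TGFB1, which encodes the latent form of TGF-beta 1, moved in the same directions by smaller amounts. It lies on chromosome 19 from 41301587 to 41353911 on the minus strand. Culture libraries had 201, 182 and 174 CPM, day 19 libraries 109, 122 and 119 CPM, and day 40 libraries 144, 140 and 138 CPM. Again the groups did not overlap and day 19 was the lowest. TGFB1 fell in day 19 cells (117 ± 6.68 CPM against 186 ± 14.3 CPM in culture, SD, n = 3 each; log2 -0.67, SE 0.07, edgeR adjusted p = 7.96e-06) and in day 40 cells (141 ± 3.17 CPM, SD, n = 3; log2 -0.40, SE 0.07, adjusted p = 0.000611). The level at day 40 was higher than at day 19 by a log2 value of 0.27 (SE 0.07, edgeR adjusted p = 0.0483). That call was lost when any 1 of the 6 femur libraries was left out, with adjusted p from 0.095 to 0.183, and without day 40 replicates 1 and 2 (adjusted p = 0.583). TGFB1 shares 215 exon bases with HNRNPUL1 on the opposite strand, and HNRNPUL1 itself did not pass the test (log2 -0.09, adjusted p = 0.292 at day 19, and log2 -0.12, adjusted p = 0.161 at day 40).

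VEGFB, a VEGF family ligand of FLT1, lies on chromosome 11 from 64234538 to 64238793 on the plus strand. It had 60.3, 61.9 and 51.8 CPM in culture, 52.9, 57.3 and 53.4 CPM at day 19, and 57.4, 63.4 and 61.9 CPM at day 40. The culture libraries overlapped those of both femur days, and the lowest day 40 library lay just above the highest day 19 library. The log2 fold change was -0.09 at day 19 against day 0, with a 95% interval of -0.26 to 0.08 (edgeR adjusted p = 0.369), and 0.07 at day 40 against day 0, with an interval of -0.10 to 0.24 (adjusted p = 0.479). Day 40 exceeded day 19 by 0.16 on the log2 scale, with an interval of -0.01 to 0.33 (adjusted p = 0.34).

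PDGFA, on chromosome 7 from 497258 to 520296 on the minus strand, had no count in any of the 9 libraries. At the floor of 3 counts per group, this allows up to 0.0420 CPM in culture, 0.0442 CPM at day 19 and 0.0366 CPM at day 40. The floor covers counting error only.

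**Figure D2:**
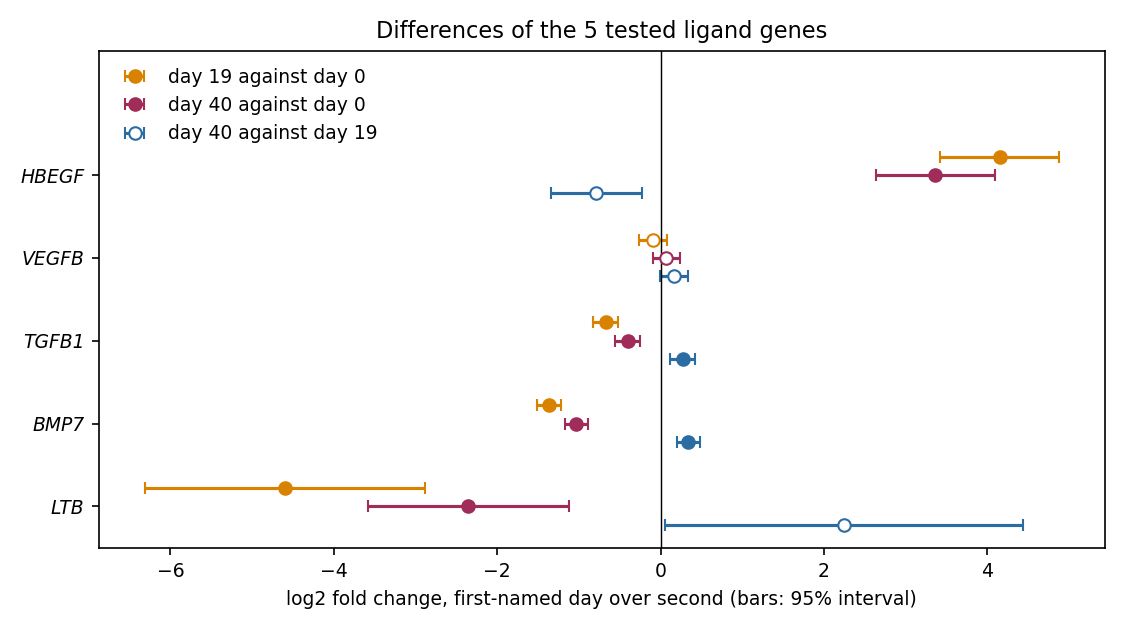
Log2 fold change of the 5 tested ligand genes, with 95% intervals from the edgeR fit, comparing either femur day with culture, and day 40 with day 19. Filled points have an adjusted p under 0.05. HBEGF lies at 4.15 and 3.36 against day 0, and LTB at -4.60 and -2.35.

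Per kilobase of merged exon, BMP7 ranked first in every group at 127 in culture, 49.3 at day 19 and 62.4 at day 40 (CPM per kilobase). TGFB1 came next, with 57.3 in culture, 36.0 at day 19 and 43.4 at day 40. VEGFB followed with 37.5 in culture, 35.3 at day 19 and 39.4 at day 40. TGFB1 and VEGFB overlapped at day 19, but not in culture or at day 40. HBEGF came after these in femur cells, at 4.09 at day 19 and 2.37 at day 40, above LTB, LTA and TNF with no overlap. In culture HBEGF, at 0.233, was below LTB at 0.778 and overlapped LTA at 0.317. LTB, LTA and TNF could not be ordered beyond their spread in femur cells, where their means ran from 0.0292 to 0.142.

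**Figure D3:**
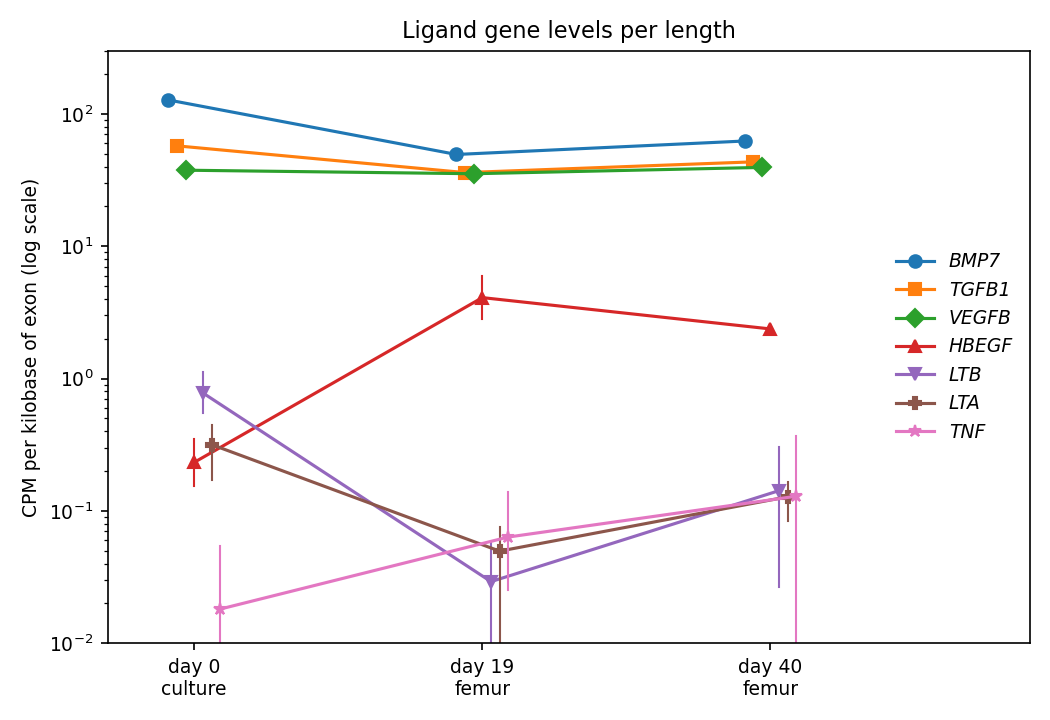
Level of 7 ligand genes in CPM per kilobase of merged exon, on a log axis, at day 0 (culture), day 19 and day 40 (femur). Points are means of 3 libraries, vertical bars run from the lowest to the highest library, and bars that reach the bottom of the plot include a library at 0; PDGFA, at 0 throughout, is not drawn. BMP7, TGFB1 and VEGFB lie at 35.3 or above, and HBEGF lies at 4.09 at day 19 and 0.233 in culture.

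Across the 9 libraries, BMP7 and TGFB1 varied together (Pearson r = 0.95 on log2 CPM), BMP7 and HBEGF in opposite directions (r = -0.97), and LTB followed BMP7 (r = 0.91). VEGFB had r between -0.07 and 0.36 with the other 4 tested ligands. Among genes of at least 5 CPM, LTB was most like PMEPA1 (r = 0.991) and CFAP68 (r = 0.986), and TGFB1 was most like ENTREP3 and HDAC7 (r = 0.991 each). BMP7 was most like LSP1 and MARCKSL1 (r = 0.996 each), HBEGF like N4BP2L1 (r = 0.993) and GAB3 (r = 0.992), and VEGFB like GNL1 (r = 0.923) and DNASE1L1 (r = 0.919). All 9 points share the split between culture and femur.

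In the counts over lists that follow, 52.8% of all tested genes passed at day 19 against day 0 and 46.6% at day 40 against day 0, about evenly split by direction. BMP8B, CCL5, CD9, FLT4, INHBA, NRROS, OSM, PDGFRB, SMAD7 and TNFRSF1B had fewer than 10 counts in every culture library and passed the filter through femur libraries, so a count of rising genes that holds them is in part set by the filter. Some falling genes, such as TNFSF15 (mean 0.177 CPM) and DKK1 (0.148 CPM), were too low at day 19 to pass the filter there. A count of falling genes that holds them is likewise in part set by the filter. Of 15 other TNF superfamily ligands, 7 were tested, of which 4 fell at day 19 against day 0 and none rose, and 3 fell and 1 rose at day 40 against day 0. The median log2 fold change was -0.97 at day 19 and -0.21 at day 40, against 0.01 for all genes in both. TNFSF8, the CD30 ligand, had 215, 181 and 190 counts at day 19 against 415, 418 and 411 in culture (log2 -1.02, edgeR adjusted p = 0.000157). TNFSF15, a ligand of death receptor 3, fell at both days (log2 -3.06 at day 19 and -1.65 at day 40), as did TNFSF13, known as APRIL (log2 -0.97 and -0.89). TNFSF9, the 4-1BB ligand, fell at day 19 (log2 -1.26, edgeR adjusted p = 0.00828) and did not pass at day 40 (log2 -0.10, adjusted p = 0.821), but passed as lower there without day 40 replicate 1 (log2 -0.77, adjusted p = 0.00641). TNFSF10, known as TRAIL, rose at day 40 (log2 0.74, edgeR adjusted p = 0.023). Its call was lost without culture replicate 1 or 3 or day 40 replicate 1 or 2, and when only the compared groups were fitted (edgeR adjusted p = 0.0524). That of TNFSF13 was lost at both days without culture replicate 3, at day 19 without day 19 replicate 1, and at day 40 without day 40 replicate 2 or 3. Adjusted p in these fits was no higher than 0.0909.

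Of 30 TGF-beta and BMP ligand genes other than TGFB1 and BMP7, 10 were tested, of which 7 rose and none fell at day 19, and 6 rose and none fell at day 40, with medians of 0.998 and 0.57 on the log2 scale. BMP3, an atypical BMP that opposes bone-forming BMPs, had 13.1, 15.7 and 9.57 CPM in culture, 82.0, 83.7 and 82.9 CPM at day 19, and 62.0, 69.0 and 78.7 CPM at day 40. It rose by 2.70 and 2.45 on the log2 scale (edgeR adjusted p = 2.4e-08 and 1.02e-07). INHBA, the activin A subunit, had 7, 4 and 1 counts in culture, 79, 76 and 44 at day 19 and 113, 81 and 64 at day 40 (log2 4.09 and 4.18). BMP8B had 1 count in all in culture, 35 at day 19 and 29 at day 40. It overlaps PPIE and has a close paralog, BMP8A, so its reads are uncertain. TGFB3 rose at day 19 (log2 1.51), and GDF11 rose at day 19 and day 40 (log2 0.46 and 0.59), both genes that overlap others.

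Among other VEGF and PDGF ligands, 3 of 7 were tested. VEGFA, the main angiogenic ligand of the family, rose at day 19 (log2 0.84, edgeR adjusted p = 8.53e-05) and at day 40 (log2 0.64, adjusted p = 0.000847). PDGFD had a log2 fold change of -0.88 at day 19 (edgeR adjusted p = 0.0205), a call lost without culture replicate 1 or 2 or day 19 replicate 3 (adjusted p 0.0569 to 0.0826). Of the 10 ligands of the EGF receptor family other than HBEGF, none was tested, 4 had no count in any library, and no library held more than 12 counts of any of them. Of 32 other factors that act on stroma, 7 were tested, of which 3 rose and 2 fell at day 19, and 4 rose and 1 fell at day 40. Oncostatin M (OSM) had 1, 5 and 1 counts in culture, 20, 16 and 20 at day 19 and 13, 13 and 12 at day 40 (log2 3.00 and 2.18). MDK, the growth factor midkine, rose by 1.30 and 1.45, and CCL5, a chemokine with at most 39 counts in a library, by 2.02 and 2.72. The CCL5 call at day 19 was lost without day 19 replicate 1 (edgeR adjusted p = 0.0628). GRN, which encodes progranulin, fell by 0.75 and 0.55 on the log2 scale. The Wnt antagonist DKK1 had 102, 43 and 12 counts at day 40 and 2, 4 and 4 at day 19 (log2 3.63, edgeR adjusted p = 0.0126). That call was lost with limma voom on all libraries (log2 3.15, adjusted p = 0.0668). Without day 40 replicates 1 and 2 the log2 value of DKK1 was 1.70.

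Transcripts of some receptors of these ligands were also counted in the culture and femur libraries. Which cells these transcripts came from was not tested. For TNF and lymphotoxin, 3 of 4 receptor genes were tested. TNFRSF14, the HVEM receptor, rose at both days (log2 1.81 and 2.02), and TNFRSF1A, the main TNF receptor, fell at both (log2 -0.65 and -0.38). TNFRSF14 shares 831 exon bases with TNFRSF14-AS1 on the opposite strand. TNFRSF1B rose at day 40 (log2 2.65, edgeR adjusted p = 0.019), on 65, 23 and 9 counts at day 40 against 4, 5 and 4 in culture. That call was lost without day 40 replicate 1 (log2 1.63, edgeR adjusted p = 0.119) and without culture replicate 1 or 3 (adjusted p 0.0564 and 0.0554). With all libraries kept, it was also lost with limma voom (log2 2.19, adjusted p = 0.0621). Without day 40 replicates 1 and 2 the log2 value was 0.99. LTBR, the lymphotoxin beta receptor, had 1 count over all 9 libraries.

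Of 13 TGF-beta and BMP receptor genes, 8 were tested, of which 3 rose and 2 fell at day 19, and 4 rose and 1 fell at day 40. TGFBR1 fell (log2 -0.76 and -0.47) and TGFBR2 rose (log2 0.70 and 0.69), the partners of the TGF-beta receptor complex. The coreceptor ENG rose at day 19 (log2 1.80) and day 40 (log2 0.98), and was lower at day 40 than at day 19 (log2 -0.82, edgeR adjusted p = 0.00863). BMPR2 fell at day 19 (log2 -0.53), and ACVR2B, an activin receptor, rose at both days (log2 0.70 and 0.64). The 5 genes of 8 that passed at each day were a share near that of all genes. ENG shares 313 exon bases with an antisense gene, and ACVR2B overlaps ACVR2B-AS1 without sharing an exon base.

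Among 11 receptor genes of the EGF, VEGF and PDGF families, 4 were tested, and PDGFRB, FLT4 and NRP2 rose at each day. EGFR, present at low counts in culture, was not among the tested genes. PDGFRB, the receptor of PDGF-B and a marker of mesenchymal cells, had 1, 2 and 0 counts in culture, 90, 142 and 117 at day 19 and 87, 114 and 82 at day 40. The ratio of summed counts was 122 at day 19, with a 95% counting interval of 41.5 to 596, and 82.2 at day 40, with an interval of 27.8 to 401. PDGFRB was also among the 14 stromal markers, 5 of which had no count in any library. FLT4, a VEGF-C receptor, had 1 count in culture, 41 at day 19 and 30 at day 40, and the coreceptor NRP2 rose by 0.72 and 0.69 on the log2 scale. EGFR had no count in any of the 6 femur libraries and 9, 7 and 21 counts in culture.

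Of 21 ligand processing genes, 16 were tested, of which 6 rose and 4 fell at day 19 against day 0, and 7 rose and 2 fell at day 40 against day 0, near the share of all genes that passed. The median was -0.01 at day 19 and 0.14 at day 40 on the log2 scale. CD9, a tetraspanin that associates with membrane HB-EGF, had 1, 0 and 1 counts in culture, 369, 492 and 604 at day 19 and 292, 573 and 345 at day 40. The ratio of summed counts was 769.5 at day 19, with a 95% counting interval of 213 to 6360, and 527 at day 40, with an interval of 146 to 4358. ADAM17, the protease that sheds TNF and HB-EGF, did not pass the test (log2 0.00, adjusted p = 0.979 at day 19, and log2 0.19, adjusted p = 0.0572 at day 40). At day 40 it passed the edgeR test as higher with total-size scaling (log2 0.27, adjusted p = 0.00566) and without culture replicate 2 (log2 0.23, adjusted p = 0.0201). ADAM17 shares 1323 exon bases with IAH1 on the opposite strand. LTBP1, which holds latent TGF-beta in the matrix, had 193, 197 and 192 CPM in culture, 64.4, 54.7 and 54.9 CPM at day 19, and 92.4, 88.7 and 102 CPM at day 40. It fell at both days (log2 -1.74, edgeR adjusted p = 6.69e-09, and log2 -1.04, adjusted p = 6.35e-07) and was higher at day 40 than at day 19 (log2 0.70, adjusted p = 0.000345).

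NRROS and LRRC32 encode proteins that hold latent TGF-beta on cell surfaces. NRROS rose at both days (log2 5.01 and 4.47), on 3 to 5 counts in each culture library, and overlaps PIGX on the same strand. LRRC32 fell at day 19 against day 0 (log2 -2.58, edgeR adjusted p = 5.54e-05) and did not pass at day 40 (log2 -0.46, adjusted p = 0.201). It was higher at day 40 than at day 19 (log2 2.12, edgeR adjusted p = 0.00398), a call lost without day 40 replicates 1 and 2 (log2 1.47, adjusted p = 0.225). LTBP2 rose at both days (log2 3.13 and 2.12) and was lower at day 40 than at day 19 (log2 -1.01, adjusted p = 0.0157). Of 14 antagonist genes 3 were tested, and TWSG1, a BMP-binding protein, fell at day 19 (log2 -0.57, edgeR adjusted p = 0.01). FURIN, which cleaves the precursors of TGF-beta, fell at day 19 (log2 -0.45, edgeR adjusted p = 0.00058) and day 40 (log2 -0.42, adjusted p = 0.00105).

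Of 20 genes of the SMAD pathway, through which TGF-beta and BMPs signal, 18 were tested, of which 8 rose and 6 fell at day 19, and 4 rose and 4 fell at day 40, a day 40 share near that of all genes. The medians were 0.20 and 0.14 on the log2 scale. SMAD7, an inhibitory SMAD, had 9, 7 and 7 counts in culture, 57, 99 and 68 at day 19 and 105, 139 and 59 at day 40 (log2 3.34 and 3.48, edgeR adjusted p = 1.34e-05 and 1.42e-05). ID3, a BMP target, rose by 1.40 and 0.94 on the log2 scale and was lower at day 40 than at day 19 (log2 -0.46, edgeR adjusted p = 0.0336). PMEPA1 and LDLRAD4, both inhibitors of TGF-beta signalling, fell in day 19 cells (log2 -2.15 and -1.61) and in day 40 cells (log2 -1.51 and -1.58). PMEPA1 and LDLRAD4 overlap other genes. TGIF1, a SMAD corepressor, rose at both days (log2 0.73 and 0.98). KLF10, a TGF-beta-induced factor, fell at day 19 against day 0 (log2 -0.78, edgeR adjusted p = 0.00174) and did not pass at day 40 (log2 -0.07, adjusted p = 0.75), although without day 40 replicate 1 it passed there as lower (log2 -0.35, adjusted p = 0.0171). KLF10 was higher at day 40 than at day 19 (log2 0.71, adjusted p = 0.0272). Without day 40 replicates 1 and 2, a single day 40 library is left, which the fit takes to vary like the other groups, so fewer libraries stand behind each test. In that setting LTBP1 still passed between days 40 and 19 (adjusted p = 0.00874), and the log2 differences that did not pass were 1.70 for DKK1, -0.60 for ENG, -0.53 for ID3, 0.56 for KLF10, 1.47 for LRRC32 and -0.79 for LTBP2. DKK1, ENG, ID3, KLF10 and LTBP2 also lost this call with some single libraries left out (adjusted p 0.0504 to 0.171), DKK1 and KLF10 without any 1 of the 3 day 19 libraries. At day 40 against day 0 the lost calls, with their log2 values from the single library, were TNFSF15 (-1.62), TNFSF13 (-1.12), TNFSF10 (0.50), GDF11 (0.44), CCL5 (1.94), TNFRSF1B (0.99), TGFBR1 (-0.39), ACVR2B (0.43) and NKG7 (-1.17).

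**Figure D4:**
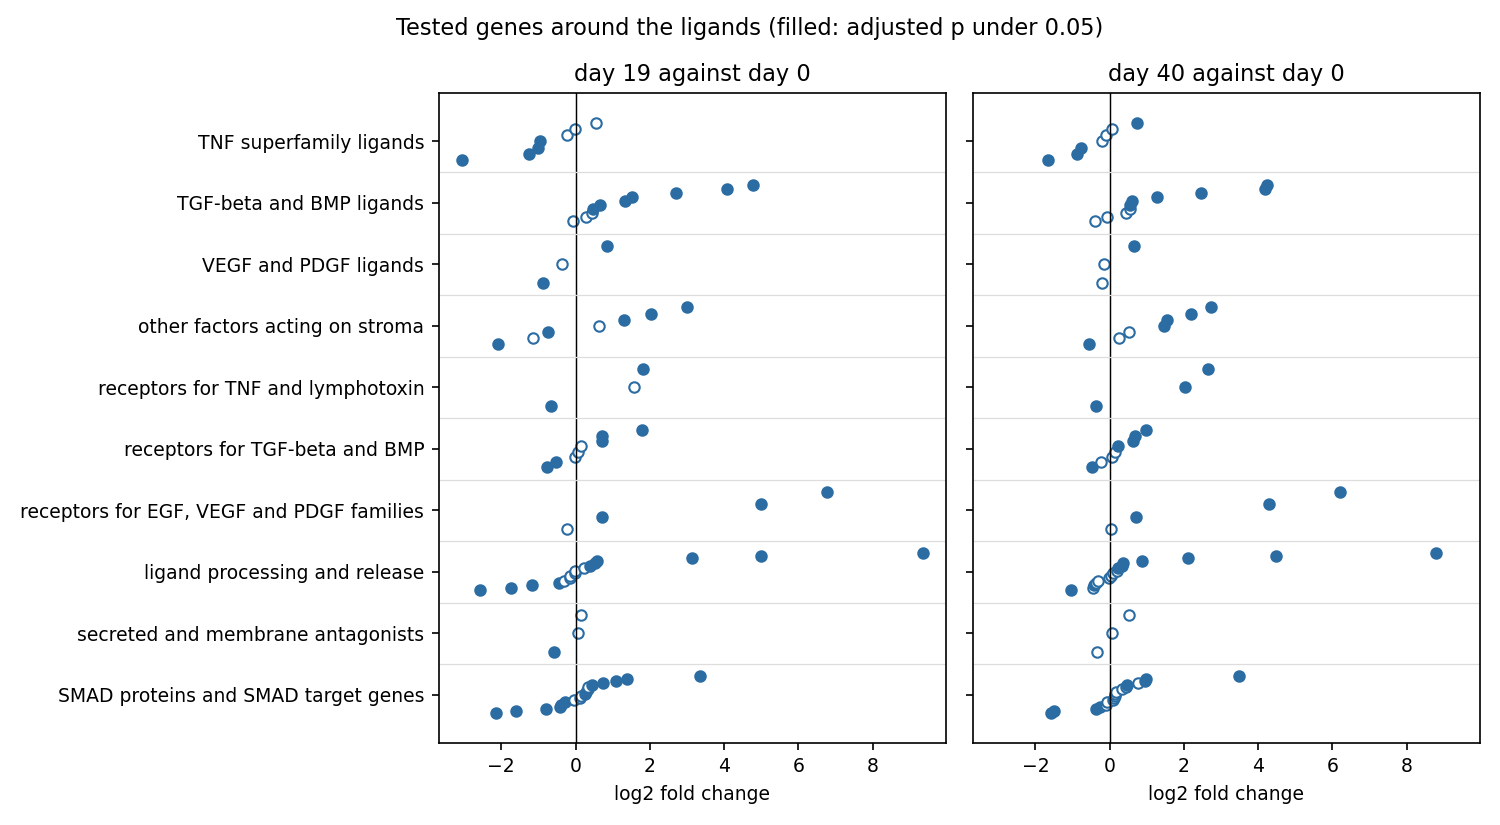
Log2 fold change of the tested genes around the 8 ligands, by list, at day 19 against day 0 (left) and day 40 against day 0 (right). Each point is a gene, filled where its adjusted p was under 0.05, and points are spread vertically for legibility; the ligands of the EGF receptor family are not shown since none was tested. The TGF-beta and BMP ligands have 7 filled points on the higher side at day 19, and CD9 lies farthest to the right in both panels.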

How the data were processed

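RNA-seq had been made from DOHH2 cells in culture and from femurs of grafted mice. The authors deposited 1 count per gene and library, unscaled. Per the submitters' processing notes, the tools were FastQC 0.11.5, STAR 2.5.2a, featureCounts 1.4.6 and DESeq2 1.40.1, and the build was hg38. Which annotation and strand setting were used, and how multimapping and mouse reads were treated, is not given in the sources used here, so reads of overlapping genes cannot be told apart. Not every overlap of a named gene is given above. GENCODE 29 named 57980 of the 58243 identifiers.

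Libraries were grouped by the labelled day. Counts were tested with edgeR 4.0.16 in R 4.3.3 (filterByExpr, TMM scaling, quasi-likelihood F-test over all 9 libraries, Benjamini-Hochberg adjustment over 15163 genes). CPM values use TMM-scaled sizes. LTA and TNF, too low for that test, were tested in CPM by exact two-sided permutation of 6 femur against 3 culture libraries, and ratios of summed counts have exact 95% intervals that cover counting error only, since PCR copies of a molecule are counted as reads. Likeness was Pearson's r of log2 CPM (prior count 2). The scripts' fit was tested on simulated counts. Alternatives were total-size scaling, no filter, limma 3.58.1 voom, DESeq2 1.42.0, a replicate block, a fit of the compared groups alone, and each library left out. In the fit without a filter the spread was in effect shared across genes, so its p-values do not measure the spread of single genes between libraries.

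The 8 members, the gene lists and the tests were chosen with earlier results of these data known. Genes outside the members were named by rule, as up to 4 called genes of smallest p per list and comparison. ADAM17, FURIN, EGFR, LTBR and marker genes are named for their roles, and HNRNPUL1 for its overlap. Values of LRRC32, KLF10, GDF11, ACVR2B, TGIF1, PMEPA1 and TNFSF9 in a comparison where the rule did not name them were added after they were seen.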

Additional observations from a re-analysis of the deposited data

Results flagged for a closer look

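Members and pathway genes whose day 40 and day 19 libraries differed by the direct edgeR test were TGFB1 (log2 fold change 0.27, day 40 over day 19), BMP7 (0.34), DKK1 (3.63), ENG (-0.82), ID3 (-0.46), KLF10 (0.71), LRRC32 (2.12), LTBP1 (0.70) and LTBP2 (-1.01). Each is a difference between the 2 femur groups, which were both set against the same culture libraries. With 1 day 40 library (without replicates 1 and 2), which the fit takes to vary like the other groups, all 9 kept their direction and LTBP1 still passed.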

How the results depend on the processing

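Against day 0, LTB, TGFB1, BMP7 and HBEGF kept their direction and their call at both days under all 16 alternatives. HBEGF ranged from 3.75 to 4.54 at day 19 and from 3.12 to 3.74 at day 40 on the log2 scale, and LTB from -5.46 to -4.04 at day 19 and from -4.69 to -1.93 at day 40. VEGFB never passed; at day 19 it was 0.00296 with scaling by total size, and at day 40 it lay between -0.0144 and 0.113 with single libraries left out, the low end without culture replicate 3. Scaling by total size moved the median of all genes to 0.10 at both days. ADAM17 at day 19 was positive with total size (0.0881), with voom (0.00296) and with some libraries left out (-0.0812 to 0.0471). It passed as higher at day 40 against day 0 with total size (0.27) and without culture replicate 2 (0.23). At day 40 against day 0, KLF10 was 0.0185 with total size and -0.35 to 0.0867 with single libraries left out, and TNFSF9 was -0.77 to 0.18 with single libraries left out, the low ends without day 40 replicate 1.

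Genes called at day 40 against day 0 numbered 4046 without day 40 replicates 1 and 2, an alternative chosen after seeing the data that leaves 1 day 40 library, against 7065. At day 40 against day 19, 710 genes became 1324 without a filter, 1092 with only the compared groups, 284 to 1199 with single libraries left out, and 93 without day 40 replicates 1 and 2. There TGFB1 missed the threshold with total size (0.26, adjusted p = 0.0669), with single libraries left out (0.22 to 0.30) and without day 40 replicates 1 and 2 (0.24). BMP7 ranged from 0.32 to 0.37 with single libraries left out and was 0.38 without day 40 replicates 1 and 2. HBEGF passed without a filter and with DESeq2 (-0.79 in both), and LTB turned to -0.10 without day 40 replicates 1 and 2. The fall of LTA (-0.40 CPM) ranged from -0.52 to -0.28 CPM with single libraries left out. Without any 1 culture library its exact permutation p was 0.0714, the smallest possible there. The cause was not tested in these cases beyond the fewer samples.

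Libraries with the same replicate number were taken as a sampling period, a grouping that the labels do not state. Between libraries of the same period, correlations of deviations from the group means were -0.05 to 0.31. Those between day 19 and day 40 were 0.10, 0.13 and 0.31. By these deviations, 7 of 9 libraries were closest to the libraries of their own period, so a shared effect of period remains possible. The replicate block by sampling period changed no call of a member, gave 8319, 7361 and 966 called genes in the 3 comparisons, and gave HBEGF 4.12 at day 19. By longest transcript in place of merged exons, levels per kilobase moved to 67.0, 42.1 and 50.7 for TGFB1, 172, 66.6 and 84.2 for BMP7, 42.0, 39.5 and 44.1 for VEGFB at days 0, 19 and 40, and 3.00 for HBEGF at day 40. Depth limits TNF, LTA and PDGFA, whose counts cannot show small differences.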
